A study of Homo sapiens with 6 samples.

Results

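The unfolded protein response and the integrated stress response were described here by 42 genes, taken by symbol from a fixed member list, and all 42 were present among the 15598 genes of the deposited count table. Of these, 40 passed the filter on low counts, which kept 11831 genes for testing. RNA had been sequenced from MHCC97H, a human hepatocellular carcinoma line with high metastatic capacity. There were 3 libraries of cells with hairpin RNA against HNRNPC (shHNRNPC, a knockdown) and 3 libraries of cells with control hairpin RNA (shcontrol). HNRNPC encodes a nuclear RNA-binding protein of pre-mRNA processing. The labels name no drug, stressor, time point or second hairpin, and do not say how many hairpins each group had. Every difference below is between these shHNRNPC and shcontrol cells, with no separate hairpin to compare. The replicates are described as independent, without saying whether they were separate cultures. The p-values weigh each group difference against the spread between these libraries only.

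The HNRNPC transcript itself stood at 62.3 ± 3.80 CPM (counts scaled to library size) in shHNRNPC libraries, against 853 ± 4.76 CPM in shcontrol libraries (SD, n = 3 each). Total counts per library ran from 15563077 to 18328475. Of 5 epithelial markers 3 averaged at least 1 CPM, and the list summed to 1570 to 1590 CPM in shHNRNPC libraries and 1380 to 1390 CPM in shcontrol libraries. Nearly all of this was KRT8 (mean 1159 CPM in shHNRNPC and 1006 CPM in shcontrol libraries) and KRT18 (405 and 364 CPM). EPCAM and KRT19 were near 0 in both groups. Of 9 hepatocyte markers listed, 6 were in the table, ALB and AFP among them. These 6 summed to 0.628 to 1.24 CPM in shHNRNPC libraries and 0.861 to 1.12 CPM in shcontrol libraries, so these liver transcripts were near 0 in both groups. Leukocyte and endothelial markers each summed to at most 2.10 CPM in any library. Fibroblast markers summed to 19.5 to 20.9 CPM in shHNRNPC libraries and 18.9 to 21.3 CPM in shcontrol libraries. The part of the higher epithelial sum in the results below was not tested.

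Cells answer misfolded protein in the endoplasmic reticulum (ER) through 3 membrane sensors. PERK (EIF2AK3) phosphorylates the translation initiation factor eIF2alpha, IRE1 (ERN1) splices the mRNA of the transcription factor XBP1, and ATF6 is cleaved to release a transcription factor. The kinases GCN2 (EIF2AK4), HRI (EIF2AK1) and PKR (EIF2AK2) phosphorylate the same eIF2alpha after amino acid shortage, haem shortage or mitochondrial stress, and double-stranded RNA. This lowers general translation and favours translation of ATF4, which switches on genes of amino acid supply, redox balance and apoptosis. XBP1 and cleaved ATF6 mainly raise ER chaperones and the machinery of ER-associated degradation (ERAD). The counts measure mRNA per gene; eIF2alpha phosphorylation, XBP1 splicing, ATF6 cleavage and protein were not measured.

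After HNRNPC knockdown the gene for ATF4 and 14 of 15 tested targets on the list were higher. Of 13 tested ER chaperones 8 were higher and 2 lower, and 3 of 4 ERAD genes were lower. With a correction for GC content and transcript length, 11 targets were higher and 1 lower, and 6 chaperones were higher and 3 lower. Only 1 ERAD gene remained lower. Of all genes in that corrected fit, 30.3% were higher and 25.4% lower. By edgeR's quasi-likelihood test at an adjusted p of 0.05, 24 of the 40 tested members rose (background 29.8% of all tested genes) and 7 fell (background 31.3%), so that 31 passed in either direction (background 61.1%). Their median log2 fold change, shHNRNPC over shcontrol, was 0.16, beside -0.004 for all tested genes. The members were chosen with earlier results of these data known, so this lean describes the list and is no evidence on the pathway as a whole. At least a 1.5-fold change past the same test was seen in 5 members upward (background 4.90%) and 2 downward (background 9.12%). After correction for GC and length these counts were 3 and 0, since ATF4, ATF3, EIF2AK3 and DNAJC3 came under 1.5-fold. The shares of all genes past 1.5-fold after this correction were not counted, so these corrected counts stand without a background. ATF4 was also just under it with libraries scaled by size alone (log2 fold change 0.55), without shHNRNPC library SI_3 (0.58) and without shcontrol library NC_3_2 (0.58). The lowest shHNRNPC library lay above the highest shcontrol library for 23 members (background 30.9%), and the reverse held for 7 (background 33.0%).

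**Figure D1:**
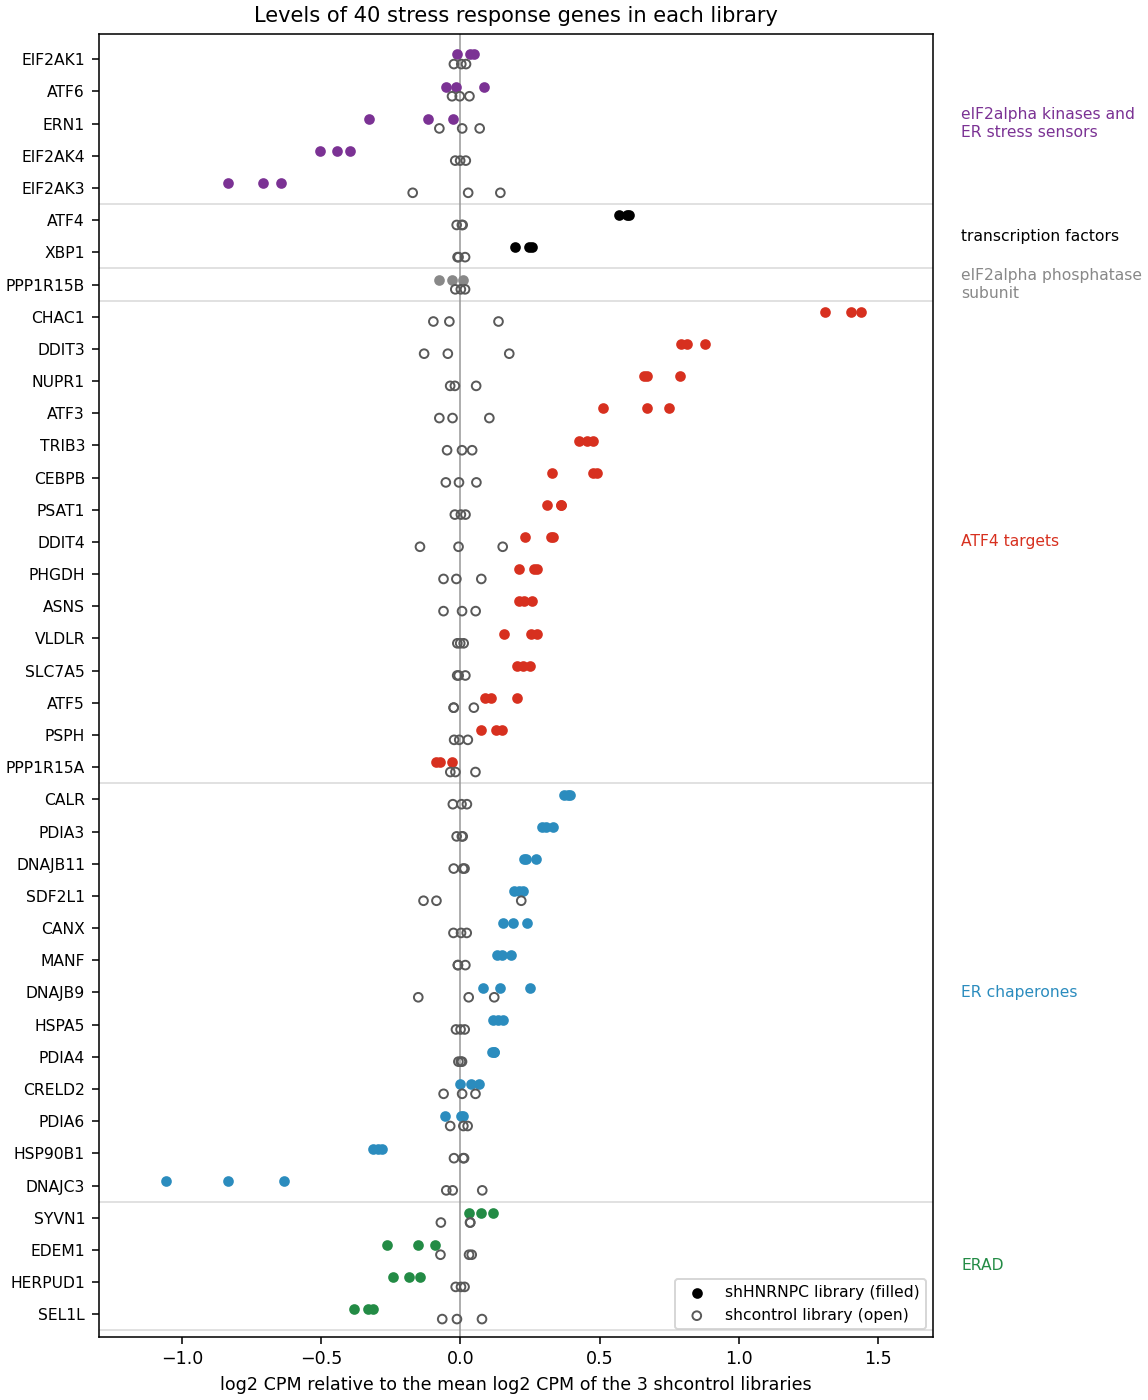
Each row is 1 of the 40 tested genes, grouped by role; the x axis is log2 CPM relative to the mean of the shcontrol libraries, with 3 filled points for shHNRNPC libraries and 3 open points for shcontrol libraries. ATF4 and 14 of 15 ATF4 targets lie right of their controls, while EIF2AK3, EIF2AK4, HSP90B1, DNAJC3, EDEM1, HERPUD1 and SEL1L lie left of theirs.

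At the top of the pathway, 0 of the 5 member sensor or eIF2alpha kinase genes were called higher as counted (background 29.8%). Lower calls were made for 2 (background 31.3%). After correction for GC and length 2 were higher (background 30.3%) and 2 lower (background 25.4%). EIF2AK3, which encodes PERK (chromosome 2, 88556741 to 88627576, minus strand, GRCh38), had 10.7, 9.76 and 11.2 CPM in shHNRNPC libraries, against 15.5, 19.2 and 17.8 CPM in shcontrol libraries. The groups did not overlap, and the level was 1.66-fold lower (log2 fold change -0.73, SE 0.097, edgeR adjusted p = 8.44e-09). EIF2AK4, the amino acid sensor GCN2, had 38.0, 39.7 and 41.1 CPM in shHNRNPC libraries, against 54.0, 54.7 and 53.3 CPM in shcontrol libraries. It too was lower without overlap, by 1.36-fold (log2 fold change -0.45, SE 0.053, edgeR adjusted p = 4.93e-10).

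The other sensors did not pass the test as counted. EIF2AK1, the haem-regulated kinase HRI, averaged 141.5 ± 3.15 CPM in shHNRNPC libraries and 139 ± 2.11 CPM in shcontrol libraries (SD, n = 3 each), with a 95% interval of the log2 difference of -0.04 to 0.09. After correction for GC and length EIF2AK1 was called higher, at 0.10 (edgeR adjusted p = 0.0047). ATF6 averaged 73.0 ± 3.57 CPM in shHNRNPC libraries and 72.7 ± 1.58 CPM in shcontrol libraries, with an interval of -0.08 to 0.09. ATF6 too was called higher after that correction, at 0.37 (edgeR adjusted p = 8.67e-11). ERN1, the kinase and nuclease IRE1, averaged 19.6 ± 2.06 CPM in shHNRNPC libraries and 21.7 ± 1.09 CPM in shcontrol libraries, and its interval of -0.31 to 0.01 left a modest fall possible (edgeR adjusted p = 0.102). ERN1 passed the test at a log2 fold change of -0.22 without shHNRNPC library SI_3_3, which had the highest of its shHNRNPC values, and at -0.19 with libraries scaled by size alone. Its difference was -0.07 without shHNRNPC library SI_3_2 (edgeR adjusted p = 0.516) and -0.08 after correction for GC and length (edgeR adjusted p = 0.434).

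The remaining eIF2alpha kinase, PKR (EIF2AK2), is not on the member list but is the one that responds to double-stranded RNA. Its level averaged 150.3 ± 4.89 CPM in shHNRNPC libraries and 157 ± 3.70 CPM in shcontrol libraries, and the difference did not pass (log2 fold change -0.06, SE 0.032, edgeR adjusted p = 0.112). After correction for GC and length, EIF2AK2 was called higher, at a log2 fold change of 0.41. Both eIF2alpha phosphatase subunits on the list were close to their control levels as counted. PPP1R15B, the constitutive subunit, averaged 52.1 ± 1.53 CPM in shHNRNPC libraries and 53.3 ± 0.647 CPM in shcontrol libraries (interval of the log2 difference -0.13 to 0.06). PPP1R15A, the stress-induced subunit GADD34 and itself an ATF4 target, averaged 138 ± 2.84 CPM in shHNRNPC libraries and 144 ± 4.80 CPM in shcontrol libraries (edgeR adjusted p = 0.101). PPP1R15A was called lower with libraries scaled by size alone (log2 fold change -0.10) and without shcontrol library NC_3 (-0.08).

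DNAJC3 encodes P58IPK, a co-chaperone of the ER that is also known as an inhibitor of PERK and PKR. On chromosome 13 (95677139 to 95794989, plus strand, GRCh38), it had the lowest fold change of the members as counted. It had 21.7, 25.3 and 29.1 CPM in shHNRNPC libraries, against 43.7, 47.8 and 44.4 CPM in shcontrol libraries. All shHNRNPC values lay below all shcontrol values, although they spread widely among themselves. The fall was 1.78-fold (log2 fold change -0.83, SE 0.069, edgeR adjusted p = 2.36e-14). After correction for GC and length it was -0.46, above the -0.56 of EIF2AK3, and without shHNRNPC library SI_3 it was -0.73.

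Both transcription factors named here as regulators were higher. ATF4 (chromosome 22, 39519695 to 39522685, plus strand, GRCh38) had 392, 389.5 and 382 CPM in shHNRNPC libraries, against 259, 255 and 258 CPM in shcontrol libraries. The groups were far apart relative to their spread, and the rise was 1.51-fold (log2 fold change 0.59, SE 0.025, edgeR adjusted p = 5.10e-25). XBP1 had 128, 123 and 127 CPM in shHNRNPC libraries, against 106, 107 and 108 CPM in shcontrol libraries. This was a smaller rise, of 1.18-fold (log2 fold change 0.23, SE 0.035, edgeR adjusted p = 1.81e-07), and counts per gene do not separate its spliced from its unspliced mRNA.

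Of 16 members listed as ATF4 targets, 15 were tested. Of these 14 rose (background 29.8%), 0 fell (background 31.3%) and 1, PPP1R15A, did not pass. Their median log2 fold change was 0.29. CHAC1, a glutathione-degrading enzyme, had 105, 115 and 106 counts in shHNRNPC libraries, against 40, 42 and 42 counts in shcontrol libraries. That was 6.39, 6.56 and 5.997 CPM in shHNRNPC libraries and 2.35, 2.66 and 2.26 CPM in shcontrol libraries. CHAC1 was low in every library, yet its groups were well separated, and it rose 2.61-fold (log2 fold change 1.38, SE 0.167, edgeR adjusted p = 9.48e-10), the largest change among the members.

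DDIT3 encodes CHOP, a transcription factor of stress-induced apoptosis. It had 14, 14.2 and 14.8 CPM in shHNRNPC libraries, against 7.82, 9.11 and 7.37 CPM in shcontrol libraries, a rise of 1.78-fold without overlap (log2 fold change 0.83, SE 0.104, edgeR adjusted p = 2.58e-09). NUPR1, a small stress-induced chromatin protein, had 75.8, 82.8 and 76.4 CPM in shHNRNPC libraries, against 46.7, 49.9 and 47.3 CPM in shcontrol libraries. ATF3, a transcription factor induced with CHOP, had 32.8, 36.6 and 38.6 CPM in shHNRNPC libraries, against 22.5, 24.7 and 21.8 CPM in shcontrol libraries. NUPR1 and ATF3 rose 1.64-fold and 1.57-fold. These 4 targets and ATF4 are the members past 1.5-fold as counted; ATF3 (0.54) and ATF4 (0.45) were under it on the log2 scale after correction for GC and length.

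TRIB3, a pseudokinase that restrains AKT and ATF4, rose 1.37-fold to 67.6 ± 1.21 CPM in shHNRNPC libraries, against 49.4 ± 1.55 CPM in shcontrol libraries. CEBPB, a partner of ATF4 in gene activation, rose 1.35-fold to 97.5 ± 5.93 CPM, against 72.2 ± 2.77 CPM in shcontrol libraries. DDIT4, an inhibitor of mTOR complex 1, rose 1.22-fold, with 29.3, 31.5 and 31.3 CPM in shHNRNPC libraries and a wider 24.9, 22.6 and 27.8 CPM in shcontrol libraries. ATF5, a transcription factor translated like ATF4, rose 1.10-fold (log2 fold change 0.14, edgeR adjusted p = 0.0108). The call of ATF5 was lost with libraries scaled by size alone (log2 fold change 0.10, edgeR adjusted p = 0.0733) and without shHNRNPC library SI_3_3 (0.10, edgeR adjusted p = 0.0943).

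The serine synthesis enzymes act in sequence as PHGDH, PSAT1 and PSPH. PHGDH rose 1.19-fold to 169 ± 3.94 CPM in shHNRNPC libraries, against 142 ± 6.84 CPM in shcontrol libraries. PSAT1 rose 1.27-fold to 214 ± 4.20 CPM in shHNRNPC libraries, against 169 ± 2.24 CPM in shcontrol libraries. PSPH rose only 1.09-fold (log2 fold change 0.12, edgeR adjusted p = 0.0419) and lost its call in DESeq2, with libraries scaled by size alone and on leaving out any of 5 single libraries. ASNS, asparagine synthetase, had 63.0, 60.9 and 61.6 CPM in shHNRNPC libraries, against 52.9, 54.7 and 50.5 CPM in shcontrol libraries (1.18-fold higher). SLC7A5, the large neutral amino acid transporter LAT1, was the most counted of these targets, at 1334 ± 21.9 CPM in shHNRNPC libraries and 1140 ± 12.4 CPM in shcontrol libraries (1.17-fold higher). VLDLR, a lipoprotein receptor, was 1.17-fold higher, at 21.7 ± 0.941 CPM in shHNRNPC libraries and 18.5 ± 0.145 CPM in shcontrol libraries. SESN2, a leucine-sensing inhibitor of mTOR complex 1, had 1 count in 1 shHNRNPC library and 0 in the 5 other libraries and was not tested. Whether the way reads were counted left SESN2 near 0 was not tested.

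ATF4 with its partners binds a composite element, the CARE, whose core was searched as TGATGNAA on both strands in RefSeq promoter windows (GRCh38.p14, 250 bases before to 50 after the annotated start). Windows were matched by symbol for 38 of the 42 members, and 3.62% of 35116 windows of all genes held the core. For each member only the first window listed was searched, and whether these cells use that start was not tested. It was found in 3 of 14 matched ATF4 targets (ATF3, CHAC1 and ASNS), in HERPUD1 and in PPP1R15B. Of these 5 genes 3 rose (background 29.8%), 1 fell (background 31.3%) and 1 did not pass. The windows of the most changed of them and of the amino acid gene ASNS are shown, in capitals the core, which starts 209 bases before the start of CHAC1 and 68 before that of ASNS.
CHAC1 (chr15:40953221-40953520, plus strand): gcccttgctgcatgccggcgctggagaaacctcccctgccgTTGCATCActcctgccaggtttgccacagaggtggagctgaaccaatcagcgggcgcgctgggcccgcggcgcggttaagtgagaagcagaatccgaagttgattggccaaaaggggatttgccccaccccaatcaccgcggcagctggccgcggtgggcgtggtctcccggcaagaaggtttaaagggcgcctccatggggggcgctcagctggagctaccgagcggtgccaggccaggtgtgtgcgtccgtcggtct
ASNS (chr7:97872359-97872658, minus strand): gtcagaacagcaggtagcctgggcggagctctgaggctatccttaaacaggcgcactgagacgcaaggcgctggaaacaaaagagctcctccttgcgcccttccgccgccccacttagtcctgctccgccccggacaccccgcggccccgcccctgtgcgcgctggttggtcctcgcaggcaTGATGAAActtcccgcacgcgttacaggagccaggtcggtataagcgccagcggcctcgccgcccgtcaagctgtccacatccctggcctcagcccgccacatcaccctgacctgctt

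Among the ER chaperones and folding enzymes, 13 of 14 members were tested, with a median log2 fold change of 0.15. Of these 8 rose (background 29.8%), 2 fell (background 31.3%) and 3 did not pass. No chaperone rose 1.5-fold. CALR, the lectin chaperone calreticulin, had 2613, 2586 and 2624 CPM in shHNRNPC libraries, against 2030, 1960 and 2003 CPM in shcontrol libraries. With CALR the most counted member and its groups apart, the rise was 1.31-fold (log2 fold change 0.38, SE 0.017, edgeR adjusted p = 7.04e-24). HSPA5, the master ER chaperone BiP, had 1819, 1797 and 1773 CPM in shHNRNPC libraries, against 1617, 1635 and 1652 CPM in shcontrol libraries. HSPA5 passed the test at only 1.10-fold higher (log2 fold change 0.14, SE 0.018, edgeR adjusted p = 6.75e-09).

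The calreticulin partner PDIA3, an oxidoreductase of glycoproteins, had 668, 649.7 and 656 CPM in shHNRNPC libraries, against 534, 526 and 532 CPM in shcontrol libraries, 1.24-fold higher. CANX, the membrane-bound counterpart of calreticulin, was 1.14-fold higher, at 195 ± 5.88 CPM in shHNRNPC libraries and 170.1 ± 2.81 CPM in shcontrol libraries. DNAJB11, a co-chaperone of BiP, was 1.19-fold higher. MANF, a secreted ER stress protein, and PDIA4, a disulfide isomerase, were 1.11-fold and 1.09-fold higher. SDF2L1, a BiP co-factor, had 138, 137 and 140 CPM in shHNRNPC libraries, against 139, 109 and 113 CPM in shcontrol libraries. Its groups overlapped because shcontrol library NC_3 matched the shHNRNPC level, and its call in edgeR (log2 fold change 0.20, adjusted p = 2.43e-04) was lost in DESeq2 (adjusted p = 0.101). Without that library the log2 fold change was 0.31, and after correction for GC and length it was -0.04 (edgeR adjusted p = 0.42).

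HSP90B1, the ER HSP90 paralogue GRP94, went the other way. It had 487, 482 and 476 CPM in shHNRNPC libraries, against 583, 597 and 596 CPM in shcontrol libraries. The groups lay apart, and HSP90B1 fell 1.23-fold (log2 fold change -0.30, SE 0.022, edgeR adjusted p = 4.37e-16), as did DNAJC3 above. The disulfide isomerase PDIA6 averaged 545 ± 12.9 CPM in shHNRNPC libraries and 551 ± 12.4 CPM in shcontrol libraries, and its difference lay between -0.06 and 0.03 on the log2 scale (95% interval). PDIA6 was called lower with libraries scaled by size alone (log2 fold change -0.06, edgeR adjusted p = 0.0293). CRELD2, an ER stress-induced isomerase, averaged 49.9 ± 1.19 CPM in shHNRNPC libraries and 48.7 ± 1.94 CPM in shcontrol libraries (interval -0.07 to 0.13). DNAJB9, a co-chaperone that represses IRE1, averaged 15.03 ± 0.902 CPM in shHNRNPC libraries and 13.5 ± 1.28 CPM in shcontrol libraries (interval -0.03 to 0.34). HYOU1, a nucleotide exchange factor of BiP, had 2, 1 and 5 counts in shHNRNPC libraries and 3, 3 and 0 in shcontrol libraries and was not tested. Whether the annotation used for counting left HYOU1 this low was not tested.

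Summed over the 14 chaperone genes, the level was 7392 ± 40.5 CPM in shHNRNPC libraries and 6501 ± 51.2 CPM in shcontrol libraries (SD, n = 3 each). CALR and HSPA5 make up most of this sum, which therefore mainly follows these genes. The 16 ATF4 targets summed to 2384 ± 25.1 CPM in shHNRNPC libraries and 2000 ± 14.1 CPM in shcontrol libraries, mostly SLC7A5.

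ERAD takes misfolded proteins back to the cytosol for degradation. Of its 4 members 3 fell (background 31.3%), 0 rose (background 29.8%) and 1 did not pass, with a median log2 fold change of -0.18. SEL1L, the scaffold of the HRD1 ubiquitin ligase complex (chromosome 14, 81471549 to 81533861, minus strand, GRCh38), had 47.4, 48.0 and 45.8 CPM in shHNRNPC libraries, against 62.9, 59.1 and 57.0 CPM in shcontrol libraries. It fell 1.27-fold without overlap (log2 fold change -0.34, SE 0.051, edgeR adjusted p = 1.09e-07), but its difference was 0.08 after correction for GC and length (edgeR adjusted p = 0.161). HERPUD1, an ER membrane protein that organises the same complex, had 112, 109 and 104 CPM in shHNRNPC libraries, against 125, 124 and 122 CPM in shcontrol libraries (1.14-fold lower). EDEM1, a lectin that selects glycoproteins for degradation, had 70.8, 67.9 and 62.8 CPM in shHNRNPC libraries, against 77.1, 77.6 and 71.8 CPM in shcontrol libraries (1.12-fold lower). Its log2 difference after the correction was 0.02, so that HERPUD1 was the 1 ERAD member still called lower, and the ERAD median was -0.003. SYVN1, the ligase HRD1 itself, averaged 96.8 ± 2.86 CPM in shHNRNPC libraries and 92.1 ± 3.83 CPM in shcontrol libraries, with an interval of -0.01 to 0.15 for the log2 difference.

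ATF6 and XBP1 act through ER stress elements, searched on both strands as ERSE (CCAAT, 9 free bases, then CCACG) and ERSE-II (ATTGG, 1 free base, then CCACG), which were present in 0.0769% and 0.0541% of the 35116 windows. At least 1 of them was found in 9 members: XBP1, HERPUD1 and the chaperones HSPA5, HSP90B1, SDF2L1, CRELD2, CALR, CANX and HYOU1. Of these 9 genes 5 rose (background 29.8%), 2 fell (background 31.3%), 1 did not pass and 1 was not tested. Another element searched, the UPRE (TGACGTGG), was present in 0.729% of all windows and in 1 of the 38 matched members, HYOU1. The windows below set a pair of abundant chaperones that rose beside HSP90B1 and HERPUD1, which fell. The capitals mark ERSE in HSPA5, HSP90B1 (a match on each strand) and CALR; in HERPUD1 they mark first a CARE core and then ERSE-II.
HSPA5 (chr9:125241294-125241593, minus strand): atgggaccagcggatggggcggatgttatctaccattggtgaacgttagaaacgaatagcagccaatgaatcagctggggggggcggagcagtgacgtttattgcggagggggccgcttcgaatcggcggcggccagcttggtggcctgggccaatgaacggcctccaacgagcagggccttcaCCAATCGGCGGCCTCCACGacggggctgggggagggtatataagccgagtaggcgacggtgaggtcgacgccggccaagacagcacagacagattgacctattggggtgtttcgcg
CALR (chr19:12938359-12938658, plus strand): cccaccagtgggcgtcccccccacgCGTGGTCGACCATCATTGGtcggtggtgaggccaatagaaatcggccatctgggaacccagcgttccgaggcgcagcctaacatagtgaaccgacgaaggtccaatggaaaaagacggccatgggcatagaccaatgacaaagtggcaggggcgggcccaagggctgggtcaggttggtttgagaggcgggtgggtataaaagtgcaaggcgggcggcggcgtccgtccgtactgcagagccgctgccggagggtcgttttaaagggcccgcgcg
HSP90B1 (chr12:103930160-103930459, plus strand): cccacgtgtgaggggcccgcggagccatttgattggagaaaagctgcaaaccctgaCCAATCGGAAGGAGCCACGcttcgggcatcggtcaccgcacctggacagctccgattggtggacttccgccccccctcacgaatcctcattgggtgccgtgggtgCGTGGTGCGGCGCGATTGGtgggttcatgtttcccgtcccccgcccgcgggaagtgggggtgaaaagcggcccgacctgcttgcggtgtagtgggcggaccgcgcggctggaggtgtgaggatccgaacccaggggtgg
HERPUD1 (chr16:56931892-56932191, plus strand): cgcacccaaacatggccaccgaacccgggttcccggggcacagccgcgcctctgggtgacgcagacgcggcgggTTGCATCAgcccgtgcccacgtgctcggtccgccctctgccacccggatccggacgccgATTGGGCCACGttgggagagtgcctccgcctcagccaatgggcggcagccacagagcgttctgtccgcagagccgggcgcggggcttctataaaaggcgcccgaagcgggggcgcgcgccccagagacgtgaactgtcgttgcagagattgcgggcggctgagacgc

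Set side by side, the 3 groups of the list differed in their counts: 14 of 15 ATF4 targets, 8 of 13 chaperones and 0 of 4 ERAD genes were called higher, against the background of 29.8%, and 0, 2 and 3 were called lower, against 31.3%. In single libraries the median of log2 CPM relative to shcontrol ran from 0.26 to 0.33 for ATF4 targets in shHNRNPC libraries, from 0.13 to 0.15 for chaperones and from -0.25 to -0.12 for ERAD genes. These ranges of library medians did not meet, but the members were chosen with earlier results known, and no test compared the groups of genes. In shcontrol libraries the medians lay between -0.02 and 0.05, between -0.01 and 0.01 and between -0.04 and 0.03. Fold changes of single genes overlapped, from -0.06 to 1.38 for ATF4 targets, -0.83 to 0.38 for chaperones and -0.34 to 0.07 for ERAD genes. After correction for GC and length the medians of the fold changes were 0.25 for ATF4 targets, 0.02 for chaperones and -0.003 for ERAD genes. The median of all tested genes was then 0.02. The medians of chaperones and ERAD genes were thus nearly level, while single corrected chaperones ran from -0.46 (DNAJC3) to 0.46 (PDIA3).

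Among 32 tested ATF4 targets that are not members, 13 rose (40.6%, background 29.8%) and 12 fell (37.5%, background 31.3%), with a median log2 fold change of 0.01. After correction for GC and length 12 were higher (background 30.3%) and 13 lower (background 25.4%). SLC7A1, a cationic amino acid transporter, fell 1.74-fold to 143 ± 1.05 CPM in shHNRNPC libraries, against 248 ± 3.82 CPM in shcontrol libraries. Its log2 fold change was -0.795 as counted and -0.743 after the correction. SLC38A2, the neutral amino acid transporter SNAT2, fell 1.63-fold to 74.5 ± 0.487 CPM in shHNRNPC libraries, against 121 ± 6.90 CPM in shcontrol libraries, and its log2 fold change of -0.70 was -0.31 after correction for GC and length. The death receptor gene TNFRSF10B rose 1.40-fold to 227 ± 4.93 CPM, against 162 ± 3.46 CPM in shcontrol libraries (log2 fold change 0.485, and 0.472 after the correction). The ends of this list, named after their values were seen, were GDF15, a stress-induced cytokine, 3.07-fold higher at 13.6 ± 0.821 CPM in shHNRNPC libraries and 4.45 ± 0.628 CPM in shcontrol libraries, and the cystine transporter gene SLC7A11, 2.23-fold lower (log2 fold change -1.16, and -0.61 after the correction). For GDF15 the log2 fold change was 1.617 as counted and 1.415 after the correction.

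Among 23 other ER folding factors 7 rose (30.4%) and 9 fell (39.1%), with a median of 0.06; the share that rose is near the background of 29.8%, and that for genes that fell is 31.3%. DNAJC10, an ER reductase, fell 2.01-fold to 68.1 ± 3.61 CPM in shHNRNPC libraries, against 137 ± 1.26 CPM in shcontrol libraries. The oxidase gene ERO1A fell 1.65-fold and UGGT2, a paralogue of the glycoprotein folding sensor UGGT1, fell 2.30-fold. The log2 fold changes of these 3 genes shrank with the correction, to -0.50 for DNAJC10, -0.34 for ERO1A and -0.80 for UGGT2, and all were still called lower. With the correction 5 of the 23 factors were higher (background 30.3%) and 10 lower (background 25.4%). Among 24 other ERAD factors 7 rose (29.2%, near the background of 29.8%) and 11 fell (45.8%, background 31.3%), with a median of -0.02. UBXN4, which recruits the ATPase VCP, fell 1.44-fold (log2 fold change -0.52, and -0.24 after the correction). The ligase RNF139 fell 1.63-fold (-0.704, and -0.633 after the correction). OS9, a lectin of the HRD1 complex, rose 1.21-fold (0.271, and 0.162 after the correction). With the correction 7 of these 24 ERAD factors were higher (background 30.3%) and 10 lower (background 25.4%).

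Among 24 genes of ER translocation and trafficking that are targets of XBP1, 8 rose (33.3%, background 29.8%) and 10 fell (41.7%, background 31.3%), with a median of -0.02. The signal recognition particle receptor gene SRPRA rose 1.44-fold, whereas SSR1, a subunit next to the translocation channel, fell 1.54-fold and LMAN1, a cargo receptor for export from the ER, fell 1.37-fold. After correction for GC and length SSR1 stood at -0.21 and LMAN1 at -0.08 on the log2 scale (edgeR adjusted p = 0.0389 for LMAN1), against -0.62 and -0.45 as counted. SRPRA stood at 0.444, against 0.525 as counted. With the correction 7 of these 24 genes were higher (background 30.3%) and 11 lower (background 25.4%). Among 26 other regulators 8 rose (30.8%, background 29.8%) and 11 fell (42.3%, background 31.3%), with a median of -0.03. CREB3L2, an ER membrane transcription factor related to ATF6, fell 2.34-fold to 32.1 ± 0.990 CPM in shHNRNPC libraries, against 75.2 ± 1.46 CPM in shcontrol libraries. NFE2L2, the oxidative stress factor NRF2, fell 1.39-fold and CREB3 fell 1.31-fold. After the correction CREB3L2 stood at -1.11, NFE2L2 at -0.429 and CREB3 at -0.537 on the log2 scale. Of the 26 regulators 7 were then higher (background 30.3%) and 8 lower (background 25.4%).

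**Figure D2:**
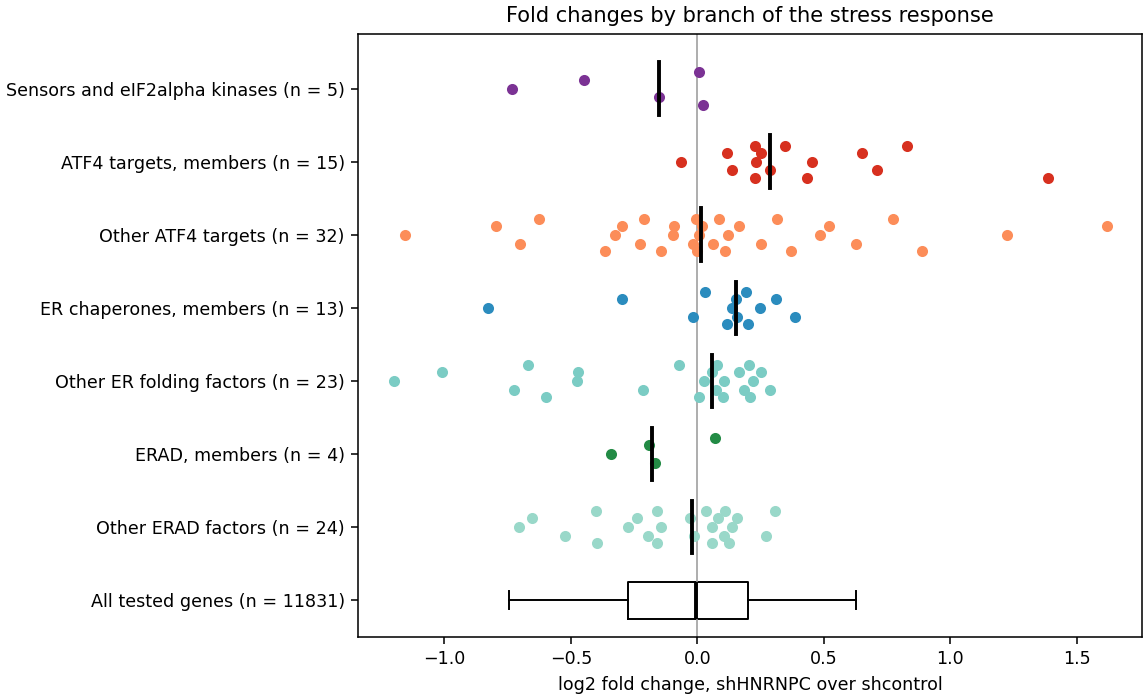
Points are log2 fold changes, shHNRNPC over shcontrol, of single genes in each group; black bars are medians, and the box gives the quartiles of all 11831 tested genes with whiskers at their percentiles 5 and 95 (-0.74 and 0.63). The member ATF4 targets have a median of 0.29 and the other ATF4 targets one of 0.01, with genes on both sides of 0.

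Per kilobase of the longest coding transcript in GENCODE 29, levels of tested members differed 801-fold in shcontrol libraries. CALR was highest, at 1370.0 ± 10.2 CPM per kilobase in shHNRNPC libraries and 1050.0 ± 18.5 CPM per kilobase in shcontrol libraries. HSPA5 followed, at 459.7 ± 5.92 CPM per kilobase in shHNRNPC libraries and 418 ± 4.54 CPM per kilobase in shcontrol libraries. These chaperones were thus the most abundant members per length as well as by count. ATF4 stood at 192 ± 2.59 CPM per kilobase in shHNRNPC libraries and 127.5 ± 1.03 CPM per kilobase in shcontrol libraries. In shHNRNPC libraries its mean lay between those of the chaperones PDIA4 and PDIA3, and in shcontrol libraries between those of SDF2L1 and PSAT1. EIF2AK3 was among the lowest, at 2.26 ± 0.152 CPM per kilobase in shHNRNPC libraries and 3.76 ± 0.409 CPM per kilobase in shcontrol libraries. CHAC1 had the lowest mean of the tested members in shcontrol libraries, while in shHNRNPC libraries, at 3.42 ± 0.156 CPM per kilobase against 1.31 ± 0.113 CPM per kilobase in shcontrol libraries, it stood above VLDLR, ERN1 and EIF2AK3.

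**Figure D3:**
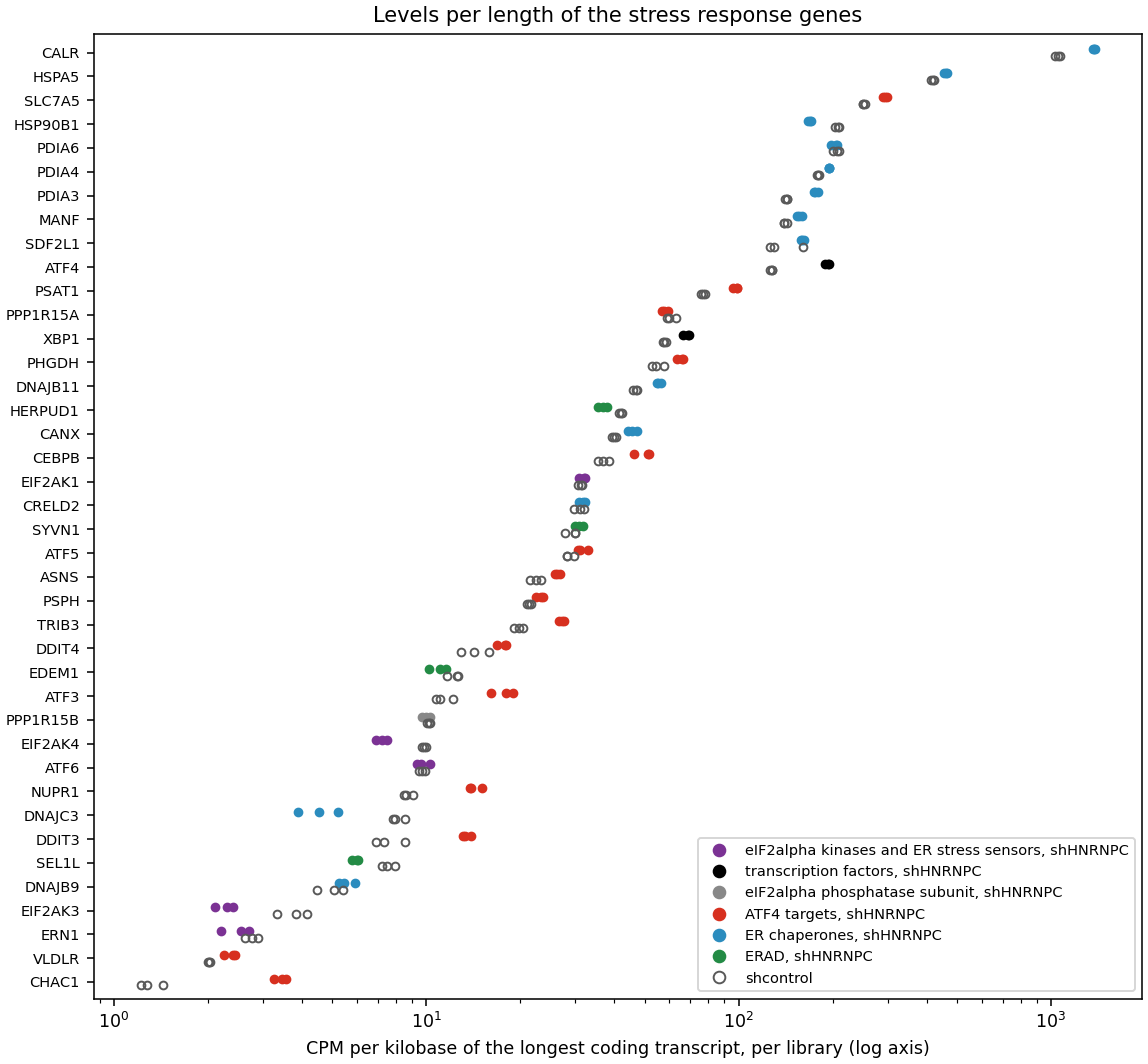
The x axis is CPM per kilobase of transcript in each library on a log scale, with tested members ordered by their shcontrol level; filled points are the 3 shHNRNPC libraries, coloured by role, and open points the 3 shcontrol libraries. The chaperones CALR and HSPA5 lie at the top, and the sensors ERN1 and EIF2AK3 near the bottom with VLDLR and CHAC1.

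The groups of members differ in the GC content and length of their transcripts, and a correction for both changed several calls. The longest coding transcripts had a median GC content of 58.1% and a length of 2188 bases for ATF4 targets, 46.0% and 2715 bases for chaperones, and 46.6% and 4645 bases for ERAD genes. After offsets for GC and length had been fitted in each library, 22 members were higher (background 30.3%) and 7 lower (background 25.4%), and 23 members were called in the same direction as before. The ATF4 targets kept a median of 0.25, with 11 higher and 1 lower, and ATF4 remained at 0.45 (edgeR adjusted p = 2.85e-24). CHAC1, DDIT3, NUPR1 and ATF3 stood at 1.22, 0.68, 0.74 and 0.54. DDIT4, PSPH and ATF5 lost their calls, and PPP1R15A was called lower (-0.19). CEBPB (0.25), PHGDH (0.13) and XBP1 (0.12) were still higher by smaller amounts, while VLDLR was higher by more (0.56).

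The chaperones and ERAD genes depended more on this correction. The chaperone median was 0.02, with 6 of 13 higher (background 30.3%) and 3 lower (background 25.4%). MANF, PDIA4 and SDF2L1 lost their calls, CRELD2 was called lower and DNAJB9 was called higher. CALR (0.24), PDIA3 (0.46) and HSPA5 (0.22) were higher, and HSP90B1 (-0.13) and DNAJC3 (-0.46) lower. CANX was higher by more than as counted (0.45). In the ERAD group HERPUD1 stood at -0.21. EIF2AK4 was still lower (-0.35), and PPP1R15B (0.20) was called higher with the correction. How much of each change follows transcript composition was not tested beyond this correction, and the transcripts these cells use are not known; for NUPR1 the annotated transcript taken is 5491 bases long.

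**Figure D4:**
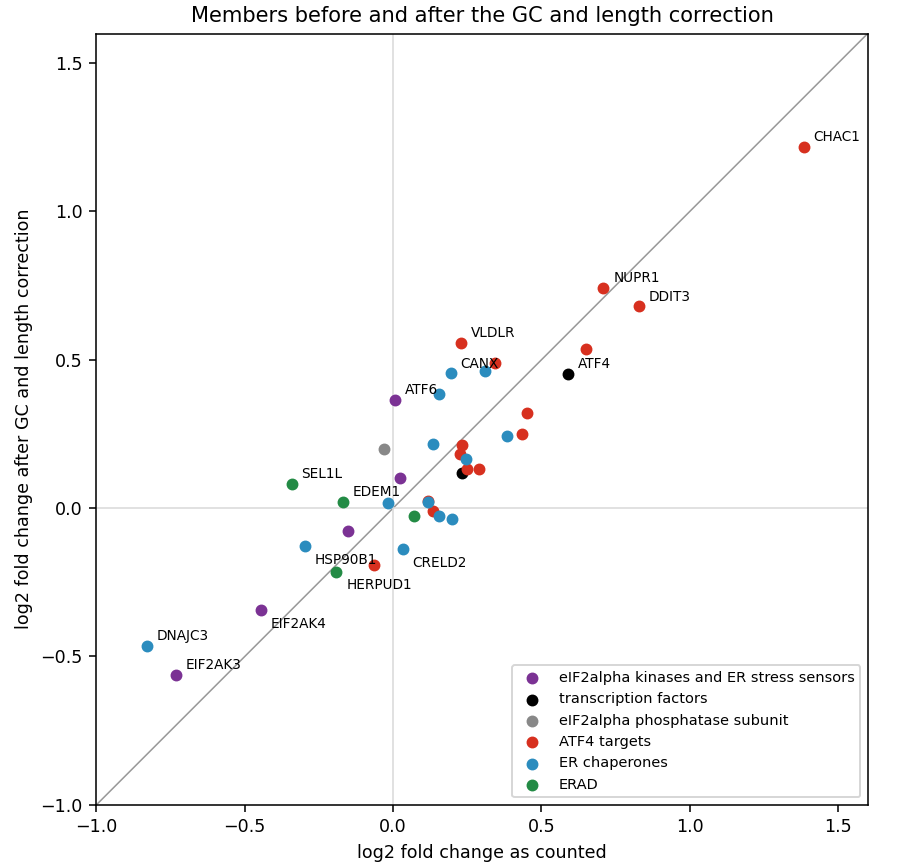
Each point is 1 tested member, coloured by role, with its log2 fold change, shHNRNPC over shcontrol, as counted on the x axis and after correction for GC and length on the y axis; the diagonal marks equal values. CHAC1, DDIT3, NUPR1, ATF4, EIF2AK3 and DNAJC3 stay on the same side of 0, while SEL1L and EDEM1 cross it.

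Exons of 18 members overlap those of another gene in GENCODE 29, and with the strand setting of the counting unknown here, reads could be shared or dropped at these places. The overlap covers 79.7% of the exon bases of ASNS, 48.5% of DDIT4, 34.7% of DNAJB11, 29.7% of PDIA6 and 24.7% of ATF5. For ASNS the other gene lies on the same strand, so a strand setting would not separate them. Smaller shares are overlapped in PDIA3 (21.5%), EIF2AK3 (16.9%), CALR (14.2%), HYOU1 (14.1%), DDIT3 (12.8%), EIF2AK1 (11.9%) and CEBPB (11.8%), among others. ATF4, CHAC1, NUPR1, TRIB3, HSPA5, DNAJC3, HERPUD1 and SEL1L have none.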

How the data were processed

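Total RNA of the 6 samples was isolated with Trizol and made into libraries with a NEBNext Ultra kit, per the labels' protocols. STAR, HTSeq 0.6.0 and DESeq2 appear, without roles, in the submitters' processing notes. Genome build, annotation and strand were not given in the sources used here. Deposited counts are whole reads per gene and library, not normalised by the authors. The authors' log2 fold changes and p-values were read from the deposited table only for comparison: they call 22 members higher and 7 lower, and 38 calls are shared with edgeR. Columns named SI and NC were taken as shHNRNPC and shcontrol; no suffix gives a replicate number. Another 12 columns of per-library values in this table, and 12 in a second one, were not used.

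Counts were filtered with filterByExpr, scaled by TMM and tested in edgeR 4.0.16 under R 4.3.3 (quasi-likelihood, glmQLFit then glmQLFTest), adjusted by Benjamini-Hochberg over 11831 genes at 0.05. CPM use the TMM-scaled library sizes. Intervals are the log2 fold change ± 1.96 SE, with the SE taken from the test statistic. Chi-square per gene over counts of at least 20 was 1.56 to 2.50 within groups, where counting noise alone gives about 1, and 29.5 to 33.6 between groups. The fit was tested on simulated counts. The members, their roles and the wider lists were chosen with earlier results of these data known. Every member was accounted for; of each wider list the 3 genes with the smallest adjusted p were named, besides EIF2AK2 and HNRNPC and genes said to be named otherwise. Alternatives were RLE, upper quartile and no composition scaling, other filters, DESeq2 1.42.0, leaving out each library, and offsets from a spline fit of log2 CPM on GC content and log length (4 degrees of freedom each; longest coding transcript in GENCODE 29, found for 11813 of the 11831 genes, the others left out of that fit). Intervals and floors cover counting error and spread between these libraries only.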

Additional observations from a re-analysis of the deposited data

How the results depend on the processing

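Across RLE and upper quartile scaling and both other filters, all 40 members kept their direction and their side of the threshold; DESeq2 lost 2 calls (PSPH and SDF2L1). The median of the ATF4 targets was 0.29 in the reported fit, 0.25 with library size alone, 0.25 after the GC and length correction and 0.27 to 0.35 on leaving out 1 library. The chaperone median was 0.15, and became 0.12 with library size alone, 0.17 with upper quartile scaling, 0.021 after the GC and length correction and 0.12 to 0.16 on leaving out 1 library. The ERAD median of -0.18 became -0.003 after that correction and ranged from -0.21 to -0.14 on leaving out 1 library. Members called lower numbered 10 with library size alone, where ERN1, PPP1R15A and PDIA6 gained calls. Members called higher numbered 22 to 24 and lower 7 to 8 on leaving out 1 library, and genes called numbered 3250 to 3369 higher and 3464 to 3615 lower. The log2 fold change changed sign after the GC and length correction for PPP1R15B (0.20), ATF5 (-0.009), SDF2L1 (-0.038), CRELD2 (-0.14), MANF (-0.026), PDIA6 (0.017), EDEM1 (0.020), SEL1L (0.083) and SYVN1 (-0.026). Uncalled values near 0 also changed sign for EIF2AK1 (-0.016), ATF6 (-0.033) and CRELD2 (-0.007) with library size alone, for ATF6 without shHNRNPC library SI_3_2 (-0.033, the lowest of a leave-one-out range up to 0.036) or shcontrol library NC_3 (-0.012), and for PDIA6 without shHNRNPC library SI_3_3 (0.004, the highest of a leave-one-out range from -0.034). The cause of these changes was not tested. No paired analysis was possible because the columns carry no replicate number of the labels. The median of all tested genes moved by less than 0.05 in every scaling. With 3 libraries a group, changes of about 1.1-fold in genes under 100 CPM, such as PSPH and ATF5, lie at the limit of what was called.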
